A study of Mus musculus with 12 samples.

Results

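The genes described here encode the chains of the fibrillar collagens of types I, III and V, namely *Col1a1*, *Col1a2*, *Col3a1*, *Col5a1*, *Col5a2* and *Col5a3*. They were chosen by gene symbol and are 6 of the 46731 genes of the expression table. RNA-seq was performed in ATDC5 cells, a chondrogenic line derived from a mouse teratocarcinoma, and n = 3 biologically independent cultures were sequenced per group. Stable lines were made by lentivirus, one with the control hairpin (shRNA-NC) and one with a hairpin against *Ddx5*, which encodes an RNA helicase (shRNA-Ddx5). Both lines were collected at 6 h, either unstimulated or with the inflammatory cytokines IL-1β and TNF-α together, which gave 4 groups and 12 libraries. All 12 libraries came from cells with an integrated hairpin cassette, and untransduced cells were not analysed here. Each hairpin was represented by a single cell line, so that a difference between hairpins and a difference between lines cannot be told apart.

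Fibrillar collagens are built from chains that wind around each other as a triple helix, and the helices then pack side by side into fibrils. Type I collagen, the main collagen of bone, tendon and scar, is a heterotrimer of α1(I) chains from *Col1a1* and an α2(I) chain from *Col1a2*, with more α1(I) than α2(I). Type III collagen is a homotrimer of the *Col3a1* product and accompanies type I in skin, vessels and healing tissue. Type V collagen, from *Col5a1*, *Col5a2* and, in some tissues, *Col5a3*, sits inside type I fibrils and controls when they start and how thick they grow. Hyaline cartilage is dominated by type II collagen, and a shift towards type I is the hallmark of fibrocartilage.

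In the deposited GRCm39 coordinates, *Col1a1* (gene 12842) lay on the plus strand of chromosome 11 from 94827050 to 94843868. *Col1a2* (12843) lay on the plus strand of chromosome 6 from 4505618 to 4541543. *Col3a1* (12825) lay on the plus strand of chromosome 1 from 45350698 to 45388866, and *Col5a2* (12832) spanned 45413491 to 45542442 of that chromosome, transcribed from the minus strand. These 2 genes were convergent neighbours with 24624 bases between their ends. *Col5a1* (12831) lay on the plus strand of chromosome 2 from 27776393 to 27929522, and *Col5a3* (53867) spanned 20681353 to 20726363 of chromosome 9, minus strand. An antisense long non-coding RNA gene overlapped *Col1a2* and another overlapped *Col5a1*. These held at most 114 and 153 fragments in any library, and strandedness of the counting is not given in the sources used here. No gene of the table overlapped the other 4 chains.

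Upstream windows were available from RefSeq for 4 of the 6 genes and are shown so that the sequence ahead of genes on 4 chromosomes can be set beside their levels. The 150 bases before the RefSeq transcript start are printed in the direction of transcription. For *Col5a1* this start lay 44 bases past the deposited gene start, so that the last 44 bases printed fall within the deposited gene. Capitals mark the motif CCAAT, the motif TATAAA or the motif GGGCGG, each searched on both strands. Each window matched GRCm39 once on its chromosome, at chr6:4505468-4505617 for *Col1a2*, chr1:45350548-45350697 for *Col3a1*, chr2:27776287-27776436 for *Col5a1* and chr9:20726364-20726513 on the minus strand for *Col5a3*.
Col1a2: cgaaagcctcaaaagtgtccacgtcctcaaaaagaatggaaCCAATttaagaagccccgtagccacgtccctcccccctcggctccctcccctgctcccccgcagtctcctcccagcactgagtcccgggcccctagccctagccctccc
Col3a1: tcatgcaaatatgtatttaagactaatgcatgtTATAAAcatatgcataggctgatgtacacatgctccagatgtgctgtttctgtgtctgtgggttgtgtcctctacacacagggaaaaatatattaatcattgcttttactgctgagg
Col5a1: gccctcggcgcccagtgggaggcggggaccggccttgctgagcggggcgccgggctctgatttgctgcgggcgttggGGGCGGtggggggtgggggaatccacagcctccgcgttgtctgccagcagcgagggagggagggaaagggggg
Col5a3: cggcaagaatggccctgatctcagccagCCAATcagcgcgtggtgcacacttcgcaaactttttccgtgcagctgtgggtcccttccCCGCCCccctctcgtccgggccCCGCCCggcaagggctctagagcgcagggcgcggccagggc
Within 250 bases upstream, CCAAT was found once in *Col1a2* and once in *Col5a3*, and in 33.8% of the 32851 windows of the RefSeq table (GRCm38.p6). GGGCGG was found 2 times each in *Col1a2*, *Col5a1* and *Col5a3*, and in 32.7% of all windows. TATAAA was found once in *Col3a1*, and in 12.4% of all windows. The G + C content was 76.4% for *Col5a1*, 62.8% for *Col5a3*, 62.0% for *Col1a2* and 35.2% for *Col3a1*, against a median of 52.4% over all windows. The windows of *Col3a1* and *Col1a2* shared none of the 3 motifs, which says nothing of any factor that may bind there.

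The libraries held 14119199 to 19276520 fragments on genes, with the shallowest being replicate 3 of shRNA-NC in medium. The level of each gene is given as FPKM, fragments per kilobase of gene scaled to the depth of the library, which allows levels of different genes to be compared per length. *Ddx5* FPKM was 294 to 337 in shRNA-NC and 90.7 to 118 in shRNA-Ddx5 cells in medium, and 301 to 327 against 93.6 to 104 with cytokines. Of 11 chondrocyte markers, 8 stayed under 1 FPKM in every library, among them *Acan*, the main cartilage proteoglycan gene, at no more than 0.0326 FPKM, whereas *Sox9*, the chondrocyte master regulator, averaged 27.5 FPKM in shRNA-NC cells in medium. Among the shRNA-NC cultures with cytokines, replicate 2 stood apart, with *Acta2* at 2.45 FPKM against a mean of 0.562 in the other 2, *Mmp13* at 4.25 against 0.441, *Igfbp5* at 5.15 against 2.27 and *Sod3* at 10.6 against 4.46. All of these genes were higher in shRNA-Ddx5 than in shRNA-NC cells with cytokines. The *Ddx5* level of replicate 2 was 302 FPKM, against 327 and 301 in replicates 1 and 3. Each culture was placed between the other 2 and the knockdown mean. The genes were chosen anew for each culture, as those differing more than 8-fold between the knockdown and the other 2. The medians therefore cover different genes, and replicate 2 was part of the reference for replicates 1 and 3. For genes higher in the knockdown, the median was 9.27% of the way for replicate 2 (50 genes). It was -4.50% and -3.19% for replicates 1 and 3 (26 and 28 genes). For genes more than 8-fold lower the medians were 23.1%, -25.7% and 7.95% for replicates 2, 1 and 3 (13, 13 and 11 genes). The shRNA-NC cultures in medium lay at -0.71% to 0.63% for the higher genes. For the lower genes, replicate 3 in medium reached 22.4% (8 genes), so that this measure did not set replicate 2 with cytokines apart. Why replicate 2 stood apart in the genes above was not tested.

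The first question was how much of each chain the cells transcribed. *Col1a2* was the most abundant of the 6 in all 12 libraries, followed in shRNA-NC cells by *Col5a2* and at the low end by *Col5a3*. In shRNA-NC cells in medium, the FPKM averaged 499 ± 11.01 for *Col1a2*, 97.0 ± 4.37 for *Col5a2*, 29.1 ± 6.66 for *Col5a1*, 19.7 ± 4.06 for *Col1a1*, 12.2 ± 0.970 for *Col3a1* and 0.0152 ± 0.00688 for *Col5a3* (SD, n = 3). Across libraries of that group *Col1a1* and *Col5a1* overlapped, since *Col1a1* reached 22.4 in replicate 1 and *Col5a1* was 21.4 in replicate 3, where both were low, but within each library *Col1a1* was the lower, at 0.653 to 0.699 of *Col5a1*. *Col1a1* and *Col3a1* were closest in replicate 3, at 14.98 and 12.5. In shRNA-Ddx5 cells in medium the order was *Col1a2*, *Col3a1*, *Col5a2*, *Col1a1*, *Col5a1* and *Col5a3*. *Col3a1* thus went from the fifth place to the second. The 6 chains together took 0.394% ± 0.00683 of all fragments on genes in shRNA-NC and 1.36% ± 0.00504 in shRNA-Ddx5 cells in medium, and 0.261% ± 0.0629 and 1.11% ± 0.0663 with cytokines (SD, n = 3).

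**Figure D1:**
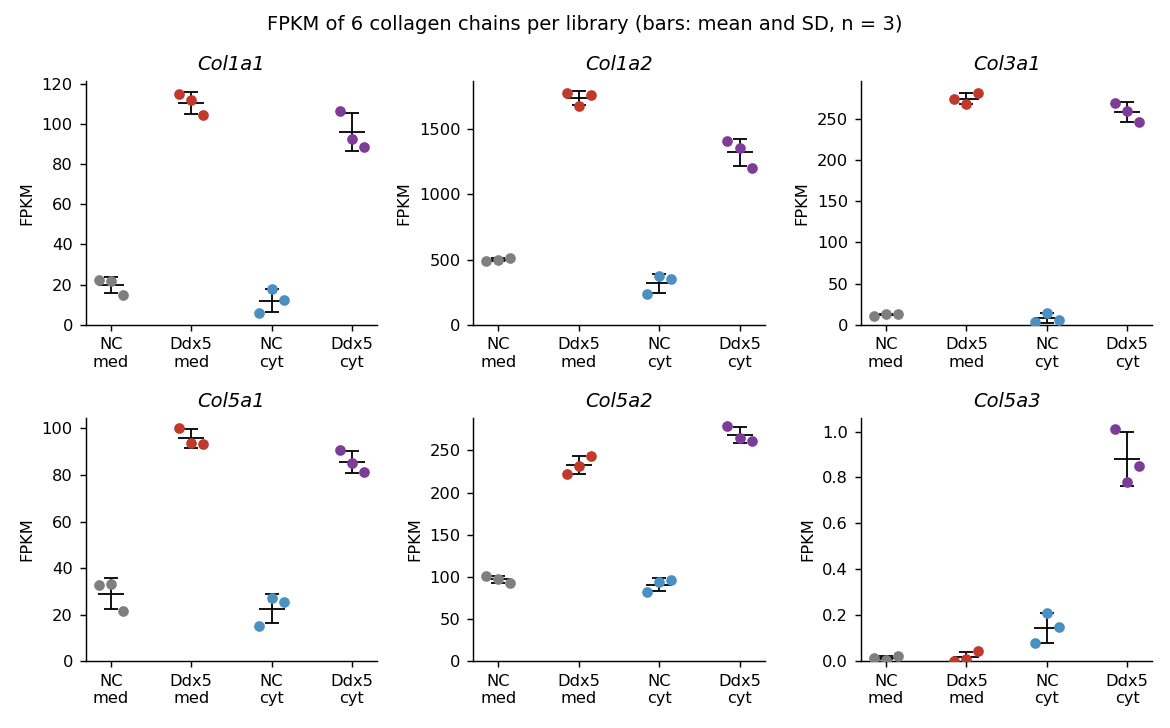
FPKM (vertical axis, linear, from 0) of each of the 6 chains in every library of the 4 groups (NC, shRNA-NC; Ddx5, shRNA-Ddx5; med, medium; cyt, IL-1β + TNF-α); points are libraries and bars the mean and SD, n = 3. For 5 chains every shRNA-Ddx5 library lies above every shRNA-NC library, and Col5a3 is seen above 0.05 FPKM with cytokines only.

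The knockdown in medium raised all 5 chains that could be tested. Expression was tested with limma as log2(FPKM + 1) over 12368 genes with at least 1 FPKM in at least 3 libraries, with Benjamini-Hochberg adjusted p under 0.05 as threshold. *Col5a3* did not reach this level and was not tested there. Over all genes, 25.3% were called higher and 21.7% lower, and 28.7% had shRNA-Ddx5 libraries all above the shRNA-NC libraries. All 5 tested chains were called higher, with no overlap between the groups. Their median log2 fold change was 1.80, against 0.03 over all genes tested. In bulk RNA, more cells expressing a collagen and more collagen RNA per cell cannot be told apart.

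For *Col1a1*, the α1(I) chain, the shRNA-NC libraries in medium held 22.4, 21.6 and 14.98 FPKM and the shRNA-Ddx5 libraries 115, 112 and 105 FPKM. The ratio of the means was 5.63 and the log2 fold change 2.45 (standard error 0.28, adjusted p = 4.8e-05, limma with Benjamini-Hochberg adjustment). The lowest knockdown library lay far above the highest control. For *Col1a2*, the α2(I) chain, the values were 492, 494 and 512 FPKM against 1774, 1678 and 1763 FPKM. The means differed 3.48-fold (log2 fold change 1.80, standard error 0.15, limma adjusted p = 6.5e-06), and replicates spread little in either group.

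*Col3a1*, the only chain of type III collagen, moved most. It went from 11.1, 13.0 and 12.5 FPKM in shRNA-NC to 273, 268 and 282 FPKM in shRNA-Ddx5 cells in medium. The means differed 22.5-fold, and the log2 fold change was 4.38 (standard error 0.31, limma adjusted p = 2.0e-06), which ranked 2 by rise among the 12368 genes tested. The groups were far apart, and the replicates of each lay close together.

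Among the type V chains, *Col5a1* held 32.9, 33.1 and 21.4 FPKM in shRNA-NC and 100.3, 93.8 and 93.1 FPKM in shRNA-Ddx5 cells. The ratio of the means was 3.29 and the log2 fold change 1.71 (standard error 0.20, limma adjusted p = 5.2e-05). Replicate 3 of shRNA-NC was low for *Col5a1*, as it was for *Col1a1*. *Col5a2*, the partner chain, held 101, 97.3 and 92.5 FPKM against 222, 231 and 244 FPKM. The change of 2.40-fold (log2 fold change 1.25, standard error 0.08, limma adjusted p = 1.3e-06) was the smallest of the 5, although its neighbour *Col3a1* had the greatest. *Col5a3* was covered by 2, 1 and 2 fragments in shRNA-NC and by 0, 1 and 5 fragments in shRNA-Ddx5 cells in medium. With 3 fragments taken as the floor of a library (0.0238 to 0.0327 FPKM in these shRNA-NC libraries), both groups were at about that floor and no fold is given.

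With cytokines, the knockdown raised the same 5 chains. Over all genes 23.5% were called higher and 22.1% lower, and 31.7% had no overlap with the shRNA-Ddx5 libraries above. All 5 tested chains were called and did not overlap, with a median log2 fold change of 2.07 against 0.01 over all genes. The 2 knockdown comparisons use different libraries, and within each medium the chains kept one order of fold change, *Col3a1*, *Col1a1*, *Col1a2*, *Col5a1* and *Col5a2*.

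*Col1a1* held 5.95, 17.7 and 12.5 FPKM in shRNA-NC and 107, 92.6 and 88.5 FPKM in shRNA-Ddx5 cells with cytokines. Its means differed 7.95-fold (log2 fold change 3.00, standard error 0.28, limma adjusted p = 1.2e-05). *Col1a2* held 234, 370 and 352 FPKM against 1407, 1352 and 1205 FPKM, a 4.15-fold difference (log2 fold change 2.07, standard error 0.15, limma adjusted p = 2.5e-06). For both type I chains replicate 1 of shRNA-NC was the lowest library and replicate 2 the highest. *Col3a1* held 3.72, 14.7 and 6.32 FPKM against 269.6, 259.5 and 245.5 FPKM, or 31.3-fold. The log2 fold change was 4.99 (standard error 0.31, limma adjusted p = 8.4e-07), the greatest rise among all genes tested, and the library highest among the controls was again replicate 2, the culture with high *Acta2* and *Mmp13* described above. Without that library the log2 fold change was 5.46, and for *Col1a1* it was 3.32.

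*Col5a1* held 15.4, 27.1 and 25.3 FPKM in shRNA-NC and 90.6, 85.1 and 81.1 FPKM in shRNA-Ddx5 cells with cytokines (3.79-fold, log2 fold change 1.91, standard error 0.20, limma adjusted p = 2.3e-05). *Col5a2* held 82.0, 94.1 and 96.8 FPKM against 279, 265 and 261 FPKM (2.95-fold, log2 fold change 1.55, standard error 0.08, limma adjusted p = 3.1e-07). *Col5a3*, which was at the floor in medium, was covered by 8, 24 and 17 fragments in shRNA-NC and by 102, 76 and 82 fragments in shRNA-Ddx5 cells. This corresponded to 0.145 ± 0.0656 and 0.881 ± 0.116 FPKM (SD, n = 3), or 6.06-fold, and only 1 library reached 1 FPKM. With no filter on low values, limma put the log2 fold change at 0.72 (standard error 0.05, adjusted p = 1.4e-05), a scale on which the added 1 FPKM compresses such low levels. With voom, limma's weighting for counts, run on the fragments of genes with at least 10 fragments in all, it gave 2.59 (standard error 0.37, adjusted p = 8.1e-05). That second setting was chosen after the low level of *Col5a3* was seen.

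**Figure D2:**
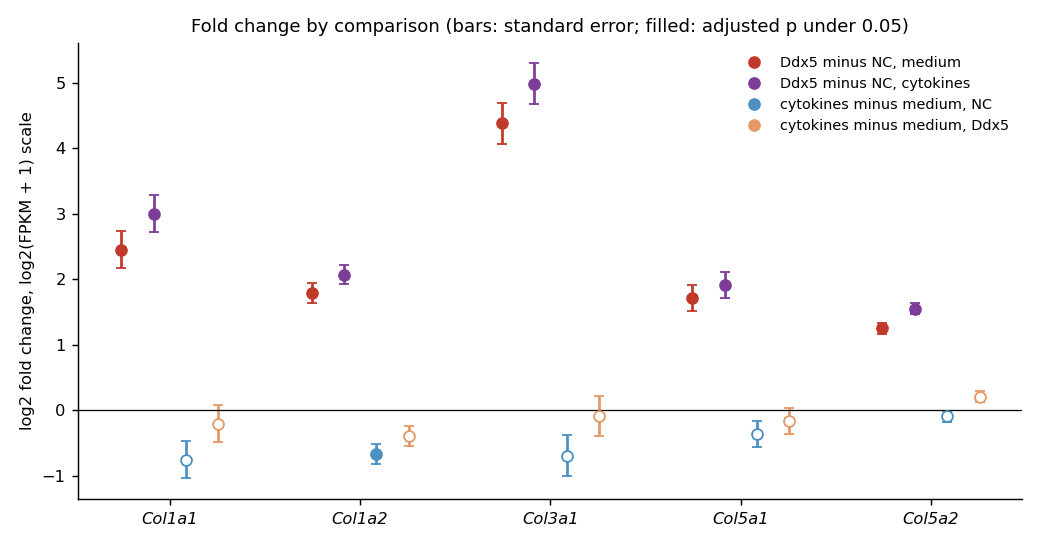
Log2 fold change on the log2(FPKM + 1) scale (vertical axis) of the 5 tested chains in the 4 comparisons of 2 groups; bars are the standard error of the limma fit, and filled points have an adjusted p under 0.05. The knockdown values lie between 1.25 and 4.99, whereas of the 10 cytokine values only that of Col1a2 in shRNA-NC cells, -0.67, passed the threshold.

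The cytokines themselves lowered *Col1a2* in shRNA-NC cells, and for the other tested chains no change passed the threshold. Over all genes 15.2% were called lower and 18.6% higher. *Col1a2* fell by 0.67 on the log2 scale (standard error 0.15, limma adjusted p = 0.0058), from 492 to 512 FPKM in medium to 234 to 370 FPKM with cytokines, without overlap, as did 45.7% of all genes in either direction. The log2 differences of the other chains were -0.75 for *Col1a1* (limma adjusted p = 0.060), -0.69 for *Col3a1* (0.109), -0.36 for *Col5a1* (0.181) and -0.09 for *Col5a2* (0.405), all with overlapping libraries. *Col1a2* stayed called with each library left out (-0.80 to -0.47, limma adjusted p of 0.0041 to 0.019). For *Col1a1*, *Col3a1* and *Col5a1* the lack of a call depended on single cultures. For *Col1a1* and *Col5a2* it also depended on the scaling, since both were called lower after quantile normalization with all libraries kept. Without replicate 2 of shRNA-NC with cytokines, *Col1a1* was called at -1.07 (limma adjusted p = 0.0091) and *Col3a1* at -1.16 (adjusted p = 0.00037). Without the shallow replicate 3 of shRNA-NC in medium, *Col1a1* was called at -0.93 (adjusted p = 0.042) and *Col5a1* at -0.56 (adjusted p = 0.041), both by limma.

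In shRNA-Ddx5 cells no tested chain was called after cytokines by limma, against 13.5% of all genes called higher and 13.5% called lower. The log2 differences were -0.40 for *Col1a2* (adjusted p = 0.075), -0.21 for *Col1a1* (0.632), -0.16 for *Col5a1* (0.593), -0.09 for *Col3a1* (0.866) and 0.21 for *Col5a2* (0.089). Although not called, the libraries with cytokines lay all below those in medium for *Col1a2* and *Col5a1*, and all above for *Col5a2*. Such separation was found in 47.3% of all genes. *Col1a2* was called under 4 alternative settings beside the leaving out of a library, for example at -0.62 after quantile normalization (limma adjusted p = 0.017). *Col5a3* went from 0, 1 and 5 fragments to 102, 76 and 82. In shRNA-NC cells it went from 2, 1 and 2 fragments to 8, 24 and 17. With no filter both rises passed (limma log2 differences 0.88, adjusted p = 2.2e-06, and 0.17, adjusted p = 0.049).

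Whether the knockdown effect depended on the cytokines was tested as an interaction, which 8.21% of all genes passed. None of the 5 tested chains passed. The differences between the knockdown effect with cytokines and that in medium were 0.60 for *Col3a1* (limma adjusted p = 0.446), 0.55 for *Col1a1* (0.446), 0.30 for *Col5a2* (0.146), 0.28 for *Col1a2* (0.478) and 0.20 for *Col5a1* (0.714), with standard errors from 0.12 for *Col5a2* to 0.44 for *Col3a1*. Without replicate 1 of shRNA-NC with cytokines, *Col1a1* was at 0.15 and *Col1a2* at 0.068, and without replicate 2 of that group at 0.87 and 0.40, none of them called by limma. Without replicate 2 of shRNA-NC with cytokines, the value of *Col3a1* was 1.08 (limma adjusted p = 0.011). For *Col5a3* the interaction was 0.71 with no filter (limma adjusted p = 0.00079), and 2.96 with voom (adjusted p = 0.110), so that its call depended on the scale.

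Since chains assemble in fixed combinations, the ratio of chains within each library was compared next. A ratio within a library does not depend on how libraries are scaled. Effects were tested by a two-sided exact permutation test of the log2 ratio, with hairpins exchanged within each medium (400 regroupings, smallest p 0.005). The 10 pairs of the 5 chains were tested and adjusted over these 10 pairs. The 5 pairs with *Col5a3* were not tested, because a library without a fragment gives no ratio. Within a single medium 3 libraries against 3 allow no p below 0.1.

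The knockdown shifted 9 of the 10 ratios, each with an exact permutation p of 0.005, the smallest of this design, and an adjusted p of 0.0056. The 10 ratios are built from the same 5 chains and are not independent. How often pairs of other genes shift in this way was not tested. The pair that missed the threshold was *Col1a2* and *Col5a1*, the α2(I) chain and the main type V chain, with *Col1a2* at 17.9 ± 5.16 times *Col5a1* in shRNA-NC and 18.2 ± 0.674 times in shRNA-Ddx5 cells in medium (SD, n = 3). With cytokines it was 14.3 ± 0.813 and 15.4 ± 0.527 times. The mean log2 difference was 0.08 (exact permutation p = 0.485). This rested on replicate 3 of shRNA-NC in medium, where the ratio was 23.9 against 14.99 and 14.93 in the others. Without it the difference was 0.20 and the adjusted p 0.010 (exact permutation test).

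The 2 chains of type I collagen were far from equal. *Col1a2* exceeded *Col1a1* per length by 22.01 to 34.2 times in shRNA-NC and by 14.99 to 16.9 times in shRNA-Ddx5 cells in medium, and by 20.9 to 39.3 and 13.2 to 14.6 times with cytokines. The *Col1a1* to *Col1a2* ratio was 0.0395 ± 0.00889 and 0.0637 ± 0.00385 in medium, and 0.0363 ± 0.0113 and 0.0726 ± 0.00373 with cytokines (SD, n = 3). It was thus higher in every shRNA-Ddx5 library than in every shRNA-NC library of the same medium, by 1.84-fold over both media. *Col1a1* nevertheless stayed the scarcer RNA of the pair in all 12 libraries. Counted as fragments, without division by length, it was 0.0289 to 0.0861 of *Col1a2*, so that the order did not depend on the lengths used (5930 and 5222 bases). Whether the gene models used for counting had a part in the low level of *Col1a1* was not tested.

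*Col3a1* gained on every other chain. Relative to *Col1a2*, it was 0.0226 to 0.0263 in shRNA-NC and 0.154 to 0.160 in shRNA-Ddx5 cells in medium, and 0.0159 to 0.0398 and 0.192 to 0.204 with cytokines, a mean shift of 7.50-fold. Relative to *Col1a1*, it was 0.645 ± 0.173 and 2.49 ± 0.179 in medium (SD, n = 3), and 0.654 ± 0.164 and 2.70 ± 0.152 with cytokines. In shRNA-NC cells *Col3a1* was therefore below *Col1a1* in all 6 libraries, and in shRNA-Ddx5 cells above it in all 6. Relative to its neighbour *Col5a2*, *Col3a1* shifted by 10.8-fold, from 0.126 ± 0.0142 to 1.18 ± 0.0424 in medium (SD, n = 3).

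Within type V, *Col5a1* was 0.299 ± 0.0586 of *Col5a2* in shRNA-NC and 0.413 ± 0.0352 in shRNA-Ddx5 cells in medium, and 0.246 ± 0.0518 and 0.319 ± 0.00731 with cytokines (SD, n = 3). The shift of 1.36-fold over both media was the smallest of the 9 that passed. *Col5a1* exceeded *Col5a3* by 129 to 196 times in shRNA-NC and by 89.8 to 109 times in shRNA-Ddx5 cells with cytokines. *Col5a3* thus remained a minor RNA of type V at its highest level.

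**Figure D3:**
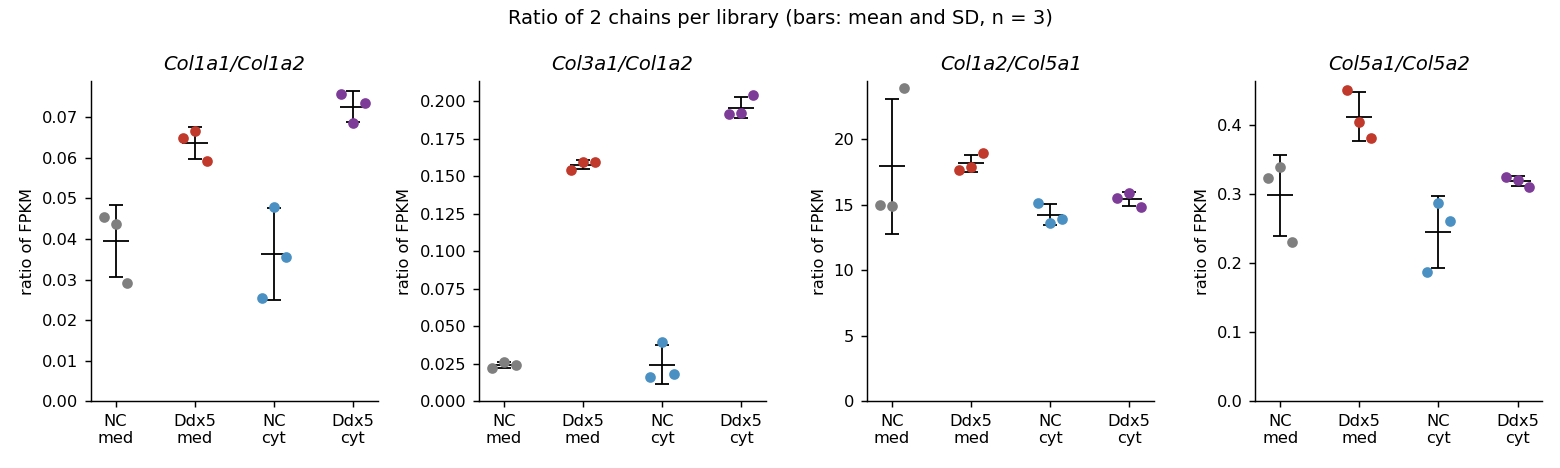
Ratio of the FPKM of 2 chains (vertical axes, linear, from 0) in every library of the 4 groups, with groups named as in the plot of levels; bars are the mean and SD, n = 3. Col1a1/Col1a2, Col3a1/Col1a2 and Col5a1/Col5a2 are higher in every shRNA-Ddx5 library than in every shRNA-NC library of the same medium, whereas Col1a2/Col5a1 overlaps in both media.

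The cytokines shifted no ratio past the threshold. The lowest adjusted p was 0.05, shared by 3 pairs (exact permutation test with treatment exchanged within each hairpin). *Col1a2* relative to *Col5a2* had a mean log2 difference of -0.59 (exact permutation p = 0.005), *Col1a1* relative to *Col5a2* of -0.57 (p = 0.015, exact) and *Col1a2* relative to *Col5a1* of -0.27 (p = 0.015, exact). The last was -0.15 without replicate 3 of shRNA-NC in medium. For the first pair the libraries did not overlap in either hairpin, with *Col1a2* at 5.16 ± 0.343 times *Col5a2* in medium and 3.47 ± 0.559 times with cytokines in shRNA-NC cells, and 7.49 ± 0.427 and 4.92 ± 0.266 times in shRNA-Ddx5 cells (SD, n = 3). Without replicate 2 of shRNA-NC with cytokines, 5 pairs passed (adjusted p of 0.017 to 0.030, exact permutation test), *Col5a2* being the chain that gained in 4 of them. The knockdown effect on a ratio differed between media by at most 0.49 on the log2 scale, for *Col3a1* relative to *Col5a1*, and that difference was not tested.

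As shares of the summed FPKM of the 6 chains, *Col1a2* held 76.0% ± 2.07 in shRNA-NC and 70.9% ± 0.486 in shRNA-Ddx5 cells in medium (SD, n = 3). *Col3a1* went from 1.86% ± 0.152 to 11.2% ± 0.170, while *Col5a2* went from 14.8% ± 0.591 to 9.48% ± 0.471. With cytokines, *Col3a1* held 1.73% ± 0.942 and 12.7% ± 0.282, and *Col5a2* 20.6% ± 3.15 and 13.2% ± 0.547. The highest share of *Col5a2* was the 24.1% of replicate 1 of shRNA-NC with cytokines, the library in which all 5 of the abundant chains, *Col5a2* included, were at their lowest of the 12. The summed FPKM was 657 ± 3.41 in shRNA-NC and 2452 ± 59.7 in shRNA-Ddx5 cells in medium, and with cytokines 453 ± 98.1 and 2030.1 ± 138 (SD, n = 3), so that a lower share of *Col1a2* or *Col5a2* stood beside a higher level.

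**Figure D4:**
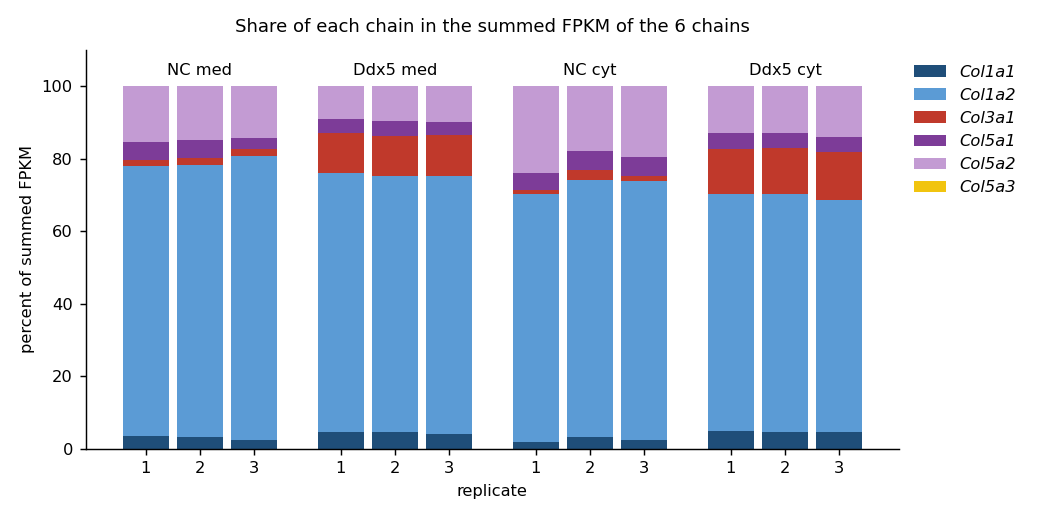
Share of each chain in the summed FPKM of the 6 chains (vertical axis, percent) for each of the 12 libraries, grouped as in the plot of levels. The Col3a1 segment widens from 1.86% to 11.2% on average in medium and from 1.73% to 12.7% with cytokines, and Col5a3 is too small to be seen.

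The other fibrillar collagens did not follow as a group. Of 5 genes, 3 were tested. *Col2a1*, the collagen of hyaline cartilage, fell from 12.4 ± 3.05 to 0.899 ± 0.0511 FPKM in medium (SD, n = 3, log2 fold change -2.80, limma adjusted p = 5.9e-06) and by 1.98 on the log2 scale with cytokines. *Col11a1*, which copolymerizes with type II and also with type V chains, rose from 0.897 ± 0.0714 to 4.78 ± 0.640 FPKM in medium (SD, n = 3, log2 fold change 1.601, limma adjusted p = 2.3e-06) and by 1.65 with cytokines. *Col11a1* passed the filter only through shRNA-Ddx5 libraries, with at most 0.966 FPKM in shRNA-NC. *Col11a2* fell by 0.78 in medium and by 0.48 with cytokines (limma adjusted p = 0.0041 and 0.044). *Col27a1* averaged 0.0972 and 0.299 FPKM in medium and 0.452 and 0.644 FPKM with cytokines, and *Col24a1* was at no more than 0.0316 FPKM in any library. Neither was tested.

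Genes that serve collagen production were described by lists, with values on the log2(FPKM + 1) scale and calls by limma, to be read against the 25.3% of all genes called higher and 21.7% lower in medium and the 23.5% and 22.1% with cytokines. Of 21 tested genes for folding, hydroxylation and export of procollagen, 12 rose and 1 fell in medium and 17 rose and 0 fell with cytokines, with medians of 0.52 and 0.62. The furthest moved were *P3h2* (1.43 in medium, 0.99 with cytokines) and *P3h3* (0.98, 1.203), prolyl 3-hydroxylase family members, and *Crtap* (1.39, 1.33), a partner of the prolyl 3-hydroxylase complex. Of 13 listed genes for propeptide removal and cross-linking, 10 were tested. Of these, 6 rose and 1 fell in medium and 7 rose and 1 fell with cytokines (medians 0.51 and 0.54). Among those that rose, *Adamts3* and *Adamts14* passed the filter only through shRNA-Ddx5 libraries, with at most 0.285 and 0.461 FPKM in shRNA-NC. The filter thus favoured a rise for both. Other genes that rose were *Pcolce* (1.53, 1.75) and *Pcolce2* (1.37, 0.81), enhancers of C-propeptide cleavage, and *Adamts2* (1.30, 1.52), the N-propeptidase. *Adamts2* also needed shRNA-Ddx5 libraries to pass the filter, with at most 1.04 FPKM in shRNA-NC in medium and 0.940 FPKM with cytokines. The gene that fell in both media was *Lox*, the cross-linking lysyl oxidase (-1.13, -0.45), named after its values were seen.

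Of 17 listed genes whose products bind or decorate fibrils, 10 were tested. Of these, 8 rose in medium and 10 with cytokines, with medians of 0.88 and 1.66, and none fell. *Dcn* and *Fmod* passed the filter only through shRNA-Ddx5 libraries, with at most 0.381 and 0.124 FPKM in shRNA-NC. The filter thus favoured a rise for both. Untested genes went both ways in medium, for example *Fbln1* from 0.560 to 0.105 FPKM and *Fbln2* from 0.162 to 0.317 FPKM. *Col12a1*, a fibril-associated collagen, rose from 3.85 ± 0.425 to 29.2 ± 4.33 FPKM in medium (SD, n = 3, log2 fold change 2.63) and by 2.51 with cytokines. *Sparc*, a collagen-binding glycoprotein gene, rose by 1.91 and 2.21, and *Dcn*, encoding the fibril proteoglycan decorin, by 0.90 and 2.29. Of 5 collagen receptor genes, 3 rose in medium and 4 with cytokines, namely *Mrc2*, an endocytic collagen receptor (1.06, 1.90), *Itga11* (1.44, 1.09) and *Itgb1* (0.78, 0.49), which encode the chains of integrin α11β1, among them. The log2 fold changes given for these genes all passed the limma threshold of an adjusted p under 0.05. No called gene of these lists changed direction under quantile normalization or rescaling.

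Regulators of collagen genes were called in both directions, with more lower than higher for the knockdown with cytokines. Over all genes, 25.3% were higher and 21.7% lower in medium, and 23.5% and 22.1% with cytokines. Of 24 tested regulators, 7 rose and 3 fell in medium (median 0.06, but -0.08 with FPKM rescaled to a common sum). With cytokines 5 rose and 11 fell (median -0.29), or 4 and 13 when rescaled. The furthest moved are named here, whichever way they went. *Sp7*, the osteoblast transcription factor osterix, was at 2.62 ± 0.408 and 28.3 ± 2.61 FPKM in medium (SD, n = 3, log2 fold change 3.02, limma adjusted p = 1.2e-07) and rose by 1.83 with cytokines. *Egr1*, an immediate early factor, was at 2.69 ± 1.30 and 1.40 ± 0.0893 FPKM in medium and at 59.1 ± 8.46 and 2.09 ± 0.432 FPKM with cytokines (SD, n = 3), a log2 fold change of -4.28 with cytokines (limma adjusted p = 3.6e-07). *Cebpb*, an inflammatory transcription factor, rose by 1.40 with cytokines (limma adjusted p = 0.00018), with a difference of -0.31 in medium that was not called (adjusted p = 0.219).

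**Figure D5:**
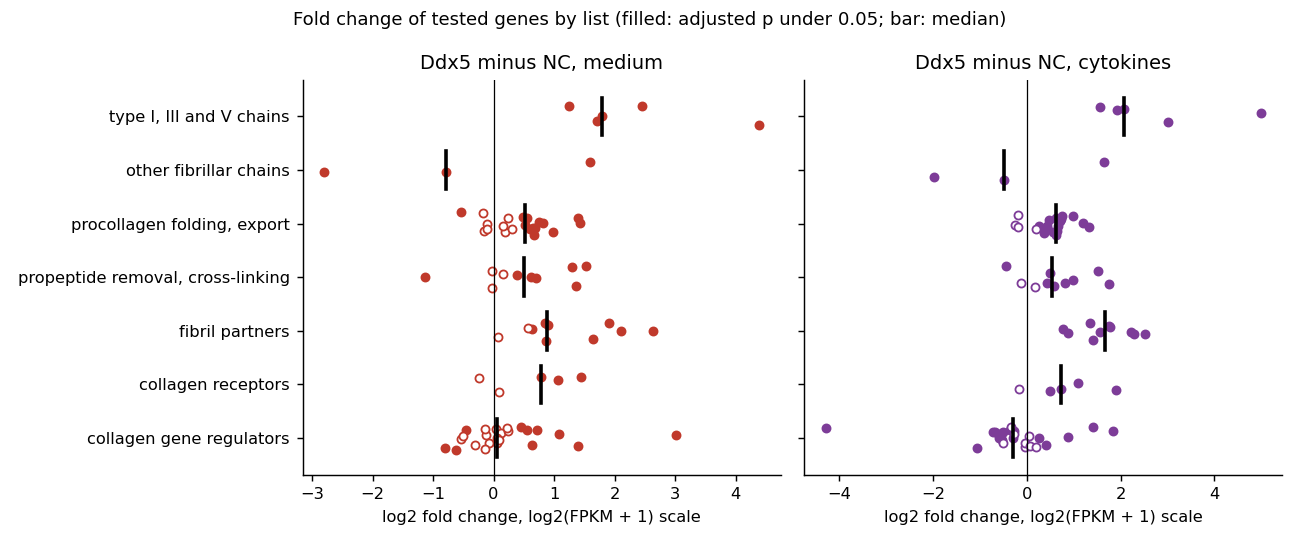
Log2 fold change on the log2(FPKM + 1) scale (horizontal axis) after knockdown for each tested gene of 7 lists, in medium and with cytokines; filled points have an adjusted p under 0.05 and bars are list medians. The type I, III and V chains have the highest median, 1.80 in medium and 2.07 with cytokines, and collagen gene regulators lie on both sides of 0.

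Among the cell type markers, the sums for myofibroblast and osteoblast genes were higher after the knockdown, and that for chondrocyte genes was lower. The summed FPKM of 6 myofibroblast and smooth muscle markers was 23.2 to 27.6 in shRNA-NC and 47.1 to 67.2 in shRNA-Ddx5 cells in medium, and 11.2 to 23.6 and 66.3 to 72.2 with cytokines. Of these, *Acta2* (log2 fold changes 3.04 and 3.26) and *Postn* (0.85 and 1.76) were tested and rose by limma. The other 4 stayed under 1 FPKM in every library. *Tagln* was listed at 0 in all libraries but 1, where it was at 0.0337 FPKM. *Acta2* needed shRNA-Ddx5 libraries to pass the filter. In shRNA-NC it was at most 0.587 FPKM in medium and reached 1 FPKM only in replicate 2 with cytokines. The filter thus favoured a rise for *Acta2*. The summed FPKM of 6 osteoblast markers was 6.40 to 7.50 and 47.8 to 53.3 in medium, and 1.40 to 4.25 and 18.5 to 21.9 with cytokines. Of these, *Sp7*, *Alpl* and *Phex* were called higher. The other osteoblast markers were not tested, and 2 of them stayed under 1 FPKM in every library. *Alpl* needed shRNA-Ddx5 libraries to pass the filter, with at most 1.07 FPKM in shRNA-NC in medium and 1.10 FPKM with cytokines. The filter thus favoured a rise for *Alpl*. The 11 chondrocyte markers summed to 37.1 to 42.6 and 24.4 to 28.4 in medium and to 12.4 to 17.6 and 7.43 to 8.71 with cytokines. Of these, *Sox9*, *Col2a1* and *Prg4* were tested. The sum came mostly from *Sox9* and *Col2a1*, and in medium only *Col2a1* was called lower. Among the untested markers, all under 1 FPKM, *Col9a1* went from 0 to 0.207 FPKM in medium, *Col10a1* from 0.0384 to 0.248 and *Hapln1* from 0 to 0.110. *Matn3* (0.0215 to 0.0190) and *Comp* (0.132 to 0.104) went the other way. *Sox9* was not called in medium (-0.19, limma adjusted p = 0.095) and fell by 0.61 with cytokines (adjusted p = 0.00017). *Prg4*, the lubricin gene, was not called in medium (0.06, limma adjusted p = 0.672) and rose by 0.90 with cytokines (adjusted p = 7.1e-05), against the direction of the sum. *Prg4* passed the filter only through shRNA-Ddx5 libraries with cytokines, with at most 0.311 FPKM in shRNA-NC. Epithelial and endothelial markers summed to no more than 0.188 FPKM, and of 7 leukocyte markers 1 reached 1 FPKM and the sum stayed within 1.205 to 2.15. The part of these cell states in the collagen values was not tested.

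Across the 12 libraries, the Pearson correlation of log2(FPKM + 1) between the 5 tested chains ranged from 0.947 to 0.995, as a description of libraries that share the 4 groups. *Col5a3* correlated with them at 0.322 to 0.570. Among tested genes outside the family, the profile most like that of *Col3a1* was that of *Adamts2* (0.997), the N-propeptidase, followed by *Alpl* (0.995), encoding alkaline phosphatase, and *Yif1a* (0.993). Most like *Col1a1* were *Ankle1*, *Mvk* and *Cnn2* (0.988 to 0.995), and most like *Col1a2* were *Rbfox2*, *Ddx17*, a paralogue of *Ddx5*, and *Bckdk* (0.990 to 0.991). *Mvk*, *Col4a5* and *Nelfcd* (0.989 to 0.993) were most like *Col5a1*, and *Rspo3*, *Nsg1* and *Gprc5b* (0.988 to 0.993) most like *Col5a2*. *Col5a3* was followed by *Steap4*, *Icam5* and *Pde4b* (0.990 to 0.992), none of which was shared with another chain. *Steap4* averaged 0.512 FPKM in shRNA-NC and 6.98 FPKM in shRNA-Ddx5 cells with cytokines and at most 0.00588 FPKM in medium, so that the profile peaked in the same group as *Col5a3*.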

How the data were processed

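Poly(A) RNA of 12 ATDC5 cultures was sequenced. The submitters' notes list HISAT2 2.0.5, featureCounts 1.5.0-p3 and the build mm10, whereas the deposited coordinates follow GRCm39. The authors deposited FPKM for 46731 genes. FPKM times gene length gave whole fragments in 100% of values (tolerance 0.01), and the library denominators were 0.957 to 1.08 times the fragments on genes, so the values already held a scaling between libraries. DESeq2, which the authors applied to counts, was not run.

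Here log2(FPKM + 1) of 12368 genes with at least 1 FPKM in at least 3 libraries was fitted with limma 3.58.1 in R 4.3.3 (4 group means, eBayes with trend, Benjamini-Hochberg adjustment, threshold 0.05). The difference understates the change of low genes. Ratios were compared by exact permutation tests. A design for 15 ratios was reduced to 10, since *Col5a3* had a library at 0. The floor of 3 fragments covers counting error only. Members, lists and tests were chosen with earlier results of these data known. Named genes were the 6 chains, *Ddx5*, the other fibrillar collagens, the 3 furthest moved called genes of each list, the 3 genes most correlated with each chain, and *Acta2*, *Mmp13*, *Igfbp5* and *Sod3*. The cell type markers named (*Acan*, *Sox9*, *Prg4*, *Col9a1*, *Col10a1*, *Hapln1*, *Matn3*, *Comp*, *Tagln*, *Postn*, *Phex*) and *Lox* fell outside this rule. So did *Adamts3*, *Adamts14*, *Fmod*, *Fbln1* and *Fbln2*, and all were chosen after their values were seen. Alternatives were a pseudocount of 0.1, other filters, other scalings, a replicate block, eBayes without trend, fewer libraries, voom on fragments and each library left out. Scripts were tested on simulated data. Promoters came from RefSeq. Python 3.11.15 and matplotlib 3.10.9 served for the ratios and plots.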

Additional observations from a re-analysis of the deposited data

Results flagged for a closer look

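The knockdown effect on *Col5a3* differed between media: with no filter on low values it was 0.71 greater with cytokines than in medium on the log2(FPKM + 1) scale (limma adjusted p = 0.00079). The fragments behind it were 0 to 5 per library in medium, 8 to 24 in shRNA-NC and 76 to 102 in shRNA-Ddx5 cells with cytokines. On the log2 scale of voom, where the medium libraries weigh little, the same difference was 2.96 and was not called (adjusted p = 0.110). The call therefore depended on the scale, and the levels in medium are too low for a ratio of ratios to be read. With all 12 libraries none of the other 5 chains passed this test, and groups of 3 are too small for a search for single outlying libraries.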

How the results depend on the processing

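All 210 values of the knockdown effect on the 5 tested chains under the alternatives kept their direction and call, as did 149 of 150 for the ratios. The exception, *Col1a2*/*Col5a1*, ranged from 0.028 to 0.20 with each library left out. The cytokine effects were less firm. *Col1a1* in shRNA-NC was called at -0.85 with quantile normalization, -0.95 with FPKM rescaled to a common sum and -0.91 with voom, and ranged from -1.07 to -0.36 with each library left out. There *Col5a2* was called at -0.36 with quantile normalization, *Col3a1* ranged from -1.16 to -0.30 and *Col5a1* from -0.56 to -0.12. In shRNA-Ddx5, *Col1a2* was called at -0.62 with quantile normalization, -0.52 rescaled, -0.40 with only the libraries of the contrast and -0.44 with voom, and ranged from -0.45 to -0.33. *Col5a2* there ranged from 0.17 to 0.24, and was called without replicate 1 of shRNA-NC with cytokines (0.21, limma adjusted p = 0.041). For the interaction, *Col1a1* ranged from 0.15 to 0.87, *Col1a2* from 0.068 to 0.40, *Col3a1* from 0.21 to 1.08, *Col5a1* from -0.039 to 0.40, crossing 0 without replicate 1 of shRNA-NC with cytokines, and the number of genes called from 559 to 1123, against 1016. Without each library, the cytokine effect on ratios ranged from -0.088 to 0.14 for *Col1a1*/*Col1a2*, -0.022 to 0.17 for *Col3a1*/*Col1a1*, -0.11 to 0.22 for *Col3a1*/*Col1a2*, -0.34 to -0.15 for *Col1a1*/*Col5a1*, -0.32 to -0.15 for *Col1a2*/*Col5a1*, -0.36 to -0.057 for *Col3a1*/*Col5a1*, -0.73 to -0.38 for *Col1a1*/*Col5a2*, -0.64 to -0.53 for *Col1a2*/*Col5a2*, -0.75 to -0.30 for *Col3a1*/*Col5a2* and -0.41 to -0.24 for *Col5a1*/*Col5a2*. Rescaling to a common sum moved the median of all genes by -0.10 to -0.15 in the 4 comparisons of groups, and the share of higher among called genes from 53.8% to 37.4% for the knockdown in medium, 51.5% to 38.99% with cytokines, 55.1% to 33.1% for cytokines in shRNA-NC and 49.97% to 33.2% in shRNA-Ddx5. Quantile normalization gave 43.4% and 39.04% for these last 2. *Col5a3*, at or near the floor of 3 fragments in medium, had differences that followed the scale. With a pseudocount of 0.1 they were 2.03 for the knockdown with cytokines, 1.06 and 3.07 for cytokines in shRNA-NC and shRNA-Ddx5 and 2.01 for the interaction. With voom, added after the data were seen, they were 2.59, 2.85, 5.81 and 2.96, and -0.37 for the knockdown in medium. The causes were not tested. The replicate block changed no call of a chain or a ratio, and gave 5452 genes called for the knockdown in medium against 5817. Deviations of same-numbered libraries correlated at 0.04 to 0.45 between the medium groups (mean 0.27), against a mean of -0.14 for other numbers. With cytokines the means were 0.01 and -0.002. The main fit did not take the numbers as pairs, and whether the medium cultures were paired is not known.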
